A study of Mus musculus with 2 samples.

Results

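Gpr17 committed OPC-like cells were taken from 8 single-cell count matrices of mouse orthotopic tumors, and 1493 of 56943 deposited barcodes were members. Gpr17 encodes an orphan receptor that marks the step between the oligodendrocyte precursor cell (OPC) and the myelinating oligodendrocyte. Neu4 encodes a sialidase, Pllp the membrane protein plasmolipin of myelinating cells, and Tmem132b a transmembrane protein. A member held at least 2 UMIs (unique molecular identifiers, each standing for 1 captured molecule) of at least 3 of these 4 genes. It also had no UMI of Opalin, a gene of later oligodendrocytes, at most 1 UMI of Top2a, a gene of G2 and mitosis, and at most 3 UMIs of the macrophage genes C1qa, C1qb and C1qc together. The cells were thus chosen by their measured values, so the levels of these 9 genes, and the comparison of members with other cells of the same tumors, are a description with no test.

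The tumors grew from mGSC, a mouse glioblastoma stem cell line with the genotype Trp53+/- and Nf1+/-, implanted into the brain of C57BL/6J mice. By the study's methods the mice were bought as young adult females. The hosts kept their own brain, blood vessel and immune cells, and the sources used here do not give the number of clones behind the line. Vehicle or Xevinapant, a SMAC mimetic that targets inhibitor of apoptosis proteins (IAPs), was given daily, and cells from 4 tumors of each group were sequenced right after treatment. The labels describe 1 pooled library per group, with total RNA named for the vehicle pool and polyA RNA for the Xevinapant pool. Pool, batch date and treatment therefore coincide, and their parts in a difference between groups cannot be told apart. The matrices of the Xevinapant pool carry the word vehicle in their own names, and the group in the labels was followed.

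OPCs are the dividing, migrating precursors of the oligodendrocyte lineage and carry the receptor Pdgfra and the proteoglycan Cspg4 (NG2). When a precursor commits to differentiate it leaves the cell cycle, gains Gpr17, Bcas1 and the transcription factor Myrf, and loses Pdgfra, and the genes of compact myelin such as Mbp and Mog follow. Gpr17 itself is lost again before myelin is made, and gliomas of the proneural and OPC-like kind often hold cells with this precursor program.

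Some matrices resembled each other closely, and this sets the number of samples. Over barcodes that passed the quality, depth and C1q limits (tumor-side barcodes below), the mean squared z between the summed counts of a pair, which is 1 for sampling noise alone, was 1.32 for vehicle 1 and 3, 3.71 for Xevinapant 1 and 2 and 3.88 for Xevinapant 3 and 4. It was 15.5 to 45.9 for the other pairs within a group, so each of these 3 pairs was joined and counted as 1 sample, leaving 3 vehicle and 2 Xevinapant samples. In the committed cells alone, which are far fewer, the joined pairs gave 1.02, 1.35 and 1.01 and the other pairs 1.23 to 2.79, which overlap. Of the full barcodes, 1413 occurred in both pools, all of them between matrices of the same number, with 178 to 528 per pair. The shallower copy held a median of 0.597% of the UMIs of the deeper one, and 12 members had such a barcode. The share of members whose droplet barcode was also used by another matrix of its pool was 25.7% with Xevinapant and 27.6% with vehicle, against 26.8% and 27.9% of all barcodes.

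Of the 56943 barcodes, 54574 passed the quality limits, 40699 of these held at least the median UMI count of their matrix divided by 3, 36843 were tumor-side barcodes, and 11163 were also within the Opalin and Top2a limits. The vehicle samples gave 314 members (vehicle 1 and 3), 123 (vehicle 2) and 317 (vehicle 4), and the Xevinapant samples 432 (Xevinapant 1 and 2) and 307 (Xevinapant 3 and 4). Their summed counts were 1692046 to 9163152 UMIs per sample. The median UMI count of a member was 12750, 11840 and 13196 in the vehicle samples and 17780 and 16861 in the Xevinapant samples, so the treated members held more UMIs. In Xevinapant 1 and 2, 143 of 432 members held more than 3 times the median UMI count of all barcodes of their matrix. The other samples had 2 to 17 such members each. The median over all barcodes was 7452 and 8381 in these Xevinapant matrices and 10435 to 14027 in the others, so the cutoff was lower in the former. Of 6044 tumor-side barcodes with at least 3 markers, 4319, or 71.5%, were over the Top2a limit, close to the 68.1% of all tumor-side barcodes that were. Cells with at least 10 C1q UMIs carried 501 to 706 CPM (UMIs of a gene scaled to a fixed library size) of Top2a, so a barcode over the limit is not by itself shown to be a cycling cell. Opalin was present in 693 of the 6044, which include barcodes that were also over the Top2a limit. Members are thus the barcodes with these markers that held at most 1 Top2a UMI and no Opalin.

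The 4 markers did not carry equal weight. Gpr17 was below 2 UMIs in 4 members, or 0.268%. All 4 markers were present in 527 members, or 35.3%, and the commonest set of 3 was Gpr17, Tmem132b and Pllp in 28.1%, followed by Gpr17, Neu4 and Pllp in 23.4% and Gpr17, Neu4 and Tmem132b in 12.9%. Marker make-up differed between tumors: among members with 3 markers, Neu4 reached 2 UMIs in 29.6% of those of vehicle 4 and 77.2% of those of Xevinapant 1 and 2, whereas Tmem132b did so in 82.3% and 56.4%. Just outside the rule stood 1411 cells with 2 markers, 96.8% of which had Gpr17, with a mean of 19.6 UMIs of Gpr17 per cell. Just inside stood 966 cells with 3 markers and a mean of 33.3. Cells with 4 markers averaged 61.3, cells with 1 marker 10.0 and cells with none 0.252. Median depth grew along the same series, from 8826 UMIs with no marker to 17994 with 4, and the number of markers was counted before any thinning.

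To read the lineage genes along this series at 1 depth, cells with at least 3 UMIs of Olig1, Olig2 and Sox10 together were thinned to 5000 UMIs. This left 2904 cells with no marker and 518 with 4, and Sox10 was itself part of that choice. The means below are UMIs per thinned cell, over cells with 0 and with 4 markers. Sox10, a transcription factor that oligodendrocyte lineage cells need, went from 0.64 to 6.01. Bcas1, a gene of newly forming oligodendrocytes, went from 2.02 to 9.76, and Myrf, the regulator that turns on myelin genes, from 0.023 to 0.82. All 3 were higher at 4 markers than at none in each of the 5 samples. So were Cnp (0.20 to 2.16) and Ugt8a (0.024 to 0.54), enzymes of the myelin program, Nkx2-2 (0.23 to 1.65), Zfp488 (0.062 to 0.63), Itpr2 (0.29 to 2.14) and Sirt2 (0.89 to 3.36).

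**Figure D1:**
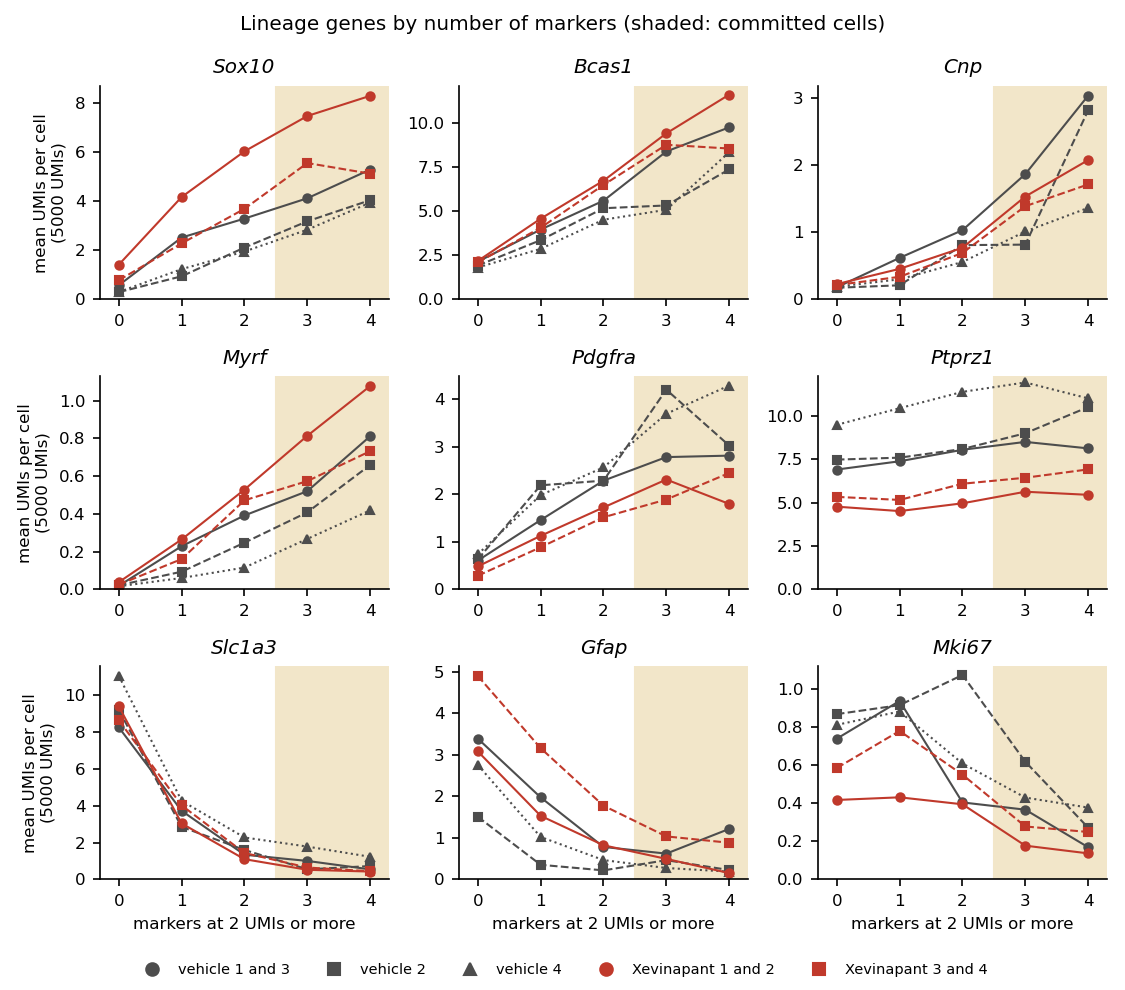
Mean UMIs per cell (y axis) of 9 lineage genes against the number of the 4 markers at 2 UMIs or more (x axis). Cells held at least 3 UMIs of Olig1, Olig2 and Sox10 together and were thinned to 5000 UMIs. Each sample is 1 line, grey for vehicle and red for Xevinapant, and committed cells are shaded. Sox10, Bcas1, Cnp and Myrf were higher and Slc1a3, Gfap and Mki67 lower at 4 markers than at none in all 5 samples, and Pdgfra was not lost along the series.

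Genes of the astrocyte and stem-like side took the opposite course. Slc1a3, a glutamate transporter of astrocytes and radial glia, went from 9.32 to 0.60 UMIs per thinned cell, Gfap, the astrocyte filament, from 3.45 to 0.54, and Aqp4, the astrocyte water channel, from 0.69 to 0.023. Inhibitors of oligodendrocyte differentiation were also lower at 4 markers: Id4 (1.11 to 0.091), Id2 (2.17 to 0.72) and Hes5, a Notch target (3.59 to 0.66). Sox9 went from 3.18 to 1.10 and Mki67, a proliferation gene, from 0.69 to 0.21, whereas Sox2 stayed between 2.60 and 3.07 at every step. Each of these genes except Sox2 was lower at 4 markers in 5 of 5 samples. The Top2a limit of at most 1 UMI held at every step but was applied before thinning, so it was stricter in deeper cells. Depth rose along the series, as given above, and its part in the lower Mki67 was not tested. Among inhibitors of cyclin-dependent kinases, Cdkn1c went from 0.18 to 1.18 and Cdkn1b from 1.12 to 0.76.

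All steps of the series were limited to cells without Opalin, so later oligodendrocytes were left out by the rule. Pdgfra, which normal precursors lose on commitment, went from 0.52 at no marker to 2.82 at 3 and 2.60 at 4. Ptprz1, a receptor phosphatase of precursors, lay between 6.85 and 8.28 throughout. Mbp, the myelin basic protein gene, was at 0.027 with no marker, 0.18 with 3 and 0.13 with 4, and Mag, Mobp and Mog reached at most 0.016 at any step. Enpp6, a gene of newly formed oligodendrocytes, went from 0.014 to 0.28 and Bmp4 from 0.0048 to 0.21.

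Members were then set beside the 6990 other cells that met the same limits and held at least 3 UMIs of Olig1, Olig2 and Sox10 together, as the log2 ratio of CPM in each sample. Among genes with a mean of at least 50 CPM in the higher class, the highest mean ratio beyond the markers belonged to Matn1, a matrix protein gene, at 3.07 ± 0.44 (SD, n = 5 samples). Its UMIs were uneven, since 5 cells held 16.7 to 77.6% of them in each sample, and 33 of 317 members of vehicle 4 had any. Fa2h, which makes the hydroxylated lipids of myelin, followed at 2.42 ± 0.49, then Myrf at 2.39 ± 0.35. Bfsp2 was at 2.22 ± 0.74, Cnp at 2.21 ± 0.37 and Ugt8a, which makes galactocerebroside, at 2.19 ± 0.45. Phactr3, Elfn2, S100a16, Lims2, Tnr, Erbb3, Tmem255b, Enpp2 and Dock9 completed the 15 highest, with means of up to 2.17. Tnr, the tenascin of oligodendrocyte lineage cells, varied least, from 1.74 to 2.21. Erbb3, a neuregulin receptor of the lineage, ranged from 1.21 in Xevinapant 1 and 2 to 3.06 in vehicle 2. Markers of the rule stood at 3.67 for Neu4, 3.14 for Tmem132b, 2.82 for Pllp and 1.66 to 2.57 in the 5 samples for Gpr17.

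Under the same limit of 50 CPM in the higher class, the lowest ratios belonged mostly to astrocyte and matrix genes. Agt (angiotensinogen) was at -3.59 ± 0.79, Aqp4 at -3.49 ± 1.08, Fn1 (fibronectin) at -3.28 ± 0.79, Tnc (tenascin C) at -3.24 ± 0.98 and Mlc1 at -3.16 ± 0.97. Id1, Slc1a3, Slc27a1, Igfbp3 and Notch3 followed, with means from -2.84 to -2.69. Every one of these 10 genes was lower in members in each of the 5 samples. Of 5996 genes with a mean of 50 CPM in the higher class, 80 were at least 2-fold higher and 74 at least 2-fold lower in all samples.

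**Figure D2:**
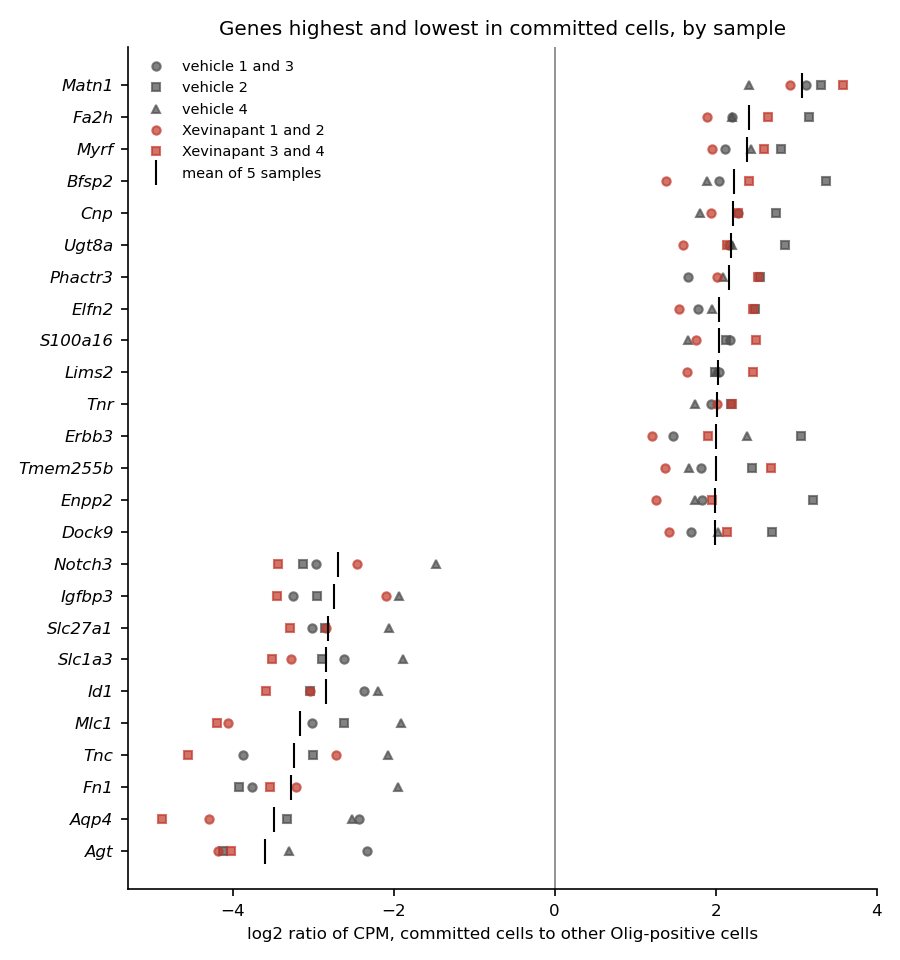
Log2 ratio of CPM in committed cells to CPM in the other Olig-positive cells of the same sample (x axis) for the 15 highest genes outside the rule and the 10 lowest, among genes with a mean of at least 50 CPM in the higher class; each point is a sample and the black bar the mean of 5 samples. Every point of Matn1, Fa2h, Myrf and Cnp lies at 1.80 or above and every point of Agt, Aqp4 and Fn1 at -1.95 or below.

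Of all 12670 genes compared, 2168 were higher and 3897 lower in members in all 5 samples, and the counts of each list stand beside these. By gene list, 14 of 15 measured genes of committed and newly formed oligodendrocytes were higher in members in all samples, with a median log2 ratio of 1.24, against -0.08 over all genes. The OPC list was higher too, for 13 of 14 genes with a median of 0.81, and lists of precursor and commitment genes were thus both higher in members. All 14 S phase and mitosis genes were lower, with a median of -0.62. Top2a was part of the rule, and its limit is stricter in deeper cells. Median depth was 14574 UMIs in members and 10436 in the other Olig-positive cells. Of 12 feedback genes of RAS-ERK signalling, the pathway that the Nf1 product restrains, 11 were lower in all samples, with a median of -0.72. Immediate early and heat shock genes had a median of -0.83, with 7 of 12 lower in all samples.

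Markers of most other cell types were present at low levels. Of the 6 mature oligodendrocyte genes, 3 had no UMI in any member, Opalin among them by the rule, and their sum was 1.96 to 8.40 CPM. The macrophage and microglia list summed to 49.3 to 105 CPM, against 2019 to 3972 CPM in the 2764 cells with at least 10 C1q UMIs, and 2 of 3 T cell genes were at 0. Astrocyte-like genes reached 417 to 696 CPM in members, against 1864 to 3336 CPM in the other Olig-positive cells, and 410 members, or 27.5%, held at least 2 UMIs of at least 2 of these genes. Sums of the remaining lists were 64.9 to 134 CPM for NPC-like, 90.6 to 156 for MES-like, 23.2 to 56.5 for endothelial, 1.18 to 33.7 for mural, 34.7 to 46.2 for neuron, 0.663 to 22.6 for neutrophil and 11.3 to 112 for erythrocyte genes. The fibroblast list varied between samples, with 1019 CPM in members of Xevinapant 1 and 2 and 49.1 to 186 CPM in the other samples. There, 5 of the 432 members held 76.6% of the 7280 Col1a1 UMIs, and 1 cell held 2975. Markers of the rule were also found in C1q cells, and their source there was not tested. Summed CPM of the 4 markers was 2856 to 3851 in members and still 416 to 623 in C1q cells. C1q cells had no Opalin or Top2a limit, and their OPC-like genes summed to 3246 to 3830 CPM. Those genes summed to 8591 to 9892 CPM in members and 3835 to 5305 CPM in the other Olig-positive cells. C1q cells are thus not a class free of lineage RNA. At 5000 UMIs, 98.1% of members and 36.6% of C1q cells held a Gpr17 UMI, at median depths of 14574 and 14494 UMIs before thinning. Scrublet, which scores barcodes by likeness to simulated doublets, placed 21 members among its highest scores.

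Whether members descend from the implant was not settled by these counts. The Y-linked genes Ddx3y, Uty, Kdm5d and Eif2s3y had no UMI in members, in other Olig-positive cells or in C1q cells, and so do not separate implant from host. Median log2 ratios to C1q cells per chromosome correlated at r = 0.67 between members and other Olig-positive cells, over 20 chromosomes and 10444 genes. The 2 series share the C1q denominator, which itself holds marker UMIs, so this is a description. The labels name the cell type as GBM stem cell, and the word tumor is used here for cells of the tumor tissue.

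Cells with the markers but over the Top2a limit, or with Opalin, show what the limits removed. At 5000 UMIs, a Pdgfra UMI was found in 73.3% of 1451 members and in 72.7% of 3852 cells with 3 markers over the Top2a limit, and Mki67 in 20.1% and 69.0%. C1q cells, those with at least 10 C1q UMIs and no Top2a limit, gave 54.8% for Mki67. Their median depth before thinning was 14494 UMIs, against 14574 in members and 29382 in the cells over the limit. Myrf was detected in 33.7% of members, 21.5% of these cells over the limit and 61.0% of 689 cells with 3 markers and Opalin. In the Opalin-positive cells, Pdgfra was at 45.0%, and Enpp6 reached 42.7%, Bmp4 26.0%, Mbp 38.9% and Mog 7.55%. These cells had no Top2a limit, held Mki67 in 47.0% and had a median depth before thinning of 30071 UMIs. The part of mixed barcodes in their values was not tested. Members had 6.06% for Enpp6, 9.17% for Bmp4, 6.27% for Mbp and 0.758% for Mog. Among 754 thinned Pdgfra OPC-like cells, chosen for at least 2 Pdgfra UMIs and none of the 4 markers at 2 UMIs, Myrf was found in 2.25% and Bcas1 in 73.2%, against 97.1% of members for Bcas1. C1q cells gave 27.9% for Pdgfra, 6.62% for Myrf, 2.26% for Enpp6, 1.15% for Bmp4, 54.6% for Bcas1 and 15.4% for Mbp. They carried lineage RNA, as given above, and had no Opalin limit, so they are not a matched background. The Mbp share of members lay below that of C1q cells and above the 3.30% of other Olig-positive cells and the 1.99% of Pdgfra OPC-like cells, and no expression is read from it.

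Pdgfra and Myrf were also read in the same thinned cells. In members, 52.2% had a UMI of Pdgfra without Myrf, 20.4% had both, 15.2% had Myrf without Pdgfra and 12.2% had neither. These shares rest on single UMIs, C1q cells gave the values above for each gene, and no co-expression within a cell is read from them. Myrf without Pdgfra was found in 17.5% of members of vehicle 1 and 3, 4.35% of vehicle 2 and 4.79% of vehicle 4, and in 23.2% of Xevinapant 1 and 2 and 16.5% of Xevinapant 3 and 4. Vehicle 1 and 3 thus lay with the Xevinapant samples in this measure, and the groups overlapped.

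How frequent were committed cells after Xevinapant? Of the tumor-side barcodes, 4.98%, 2.39% and 3.13% were members in vehicle 1 and 3, 2 and 4, a mean of 3.50% ± 1.34 (SD, n = 3). The Xevinapant samples gave 8.03% and 3.10%, a mean of 5.57% ± 3.49 (SD, n = 2). Xevinapant 1 and 2 was the highest sample, and Xevinapant 3 and 4 lay within the vehicle range. The Top2a limit left out 52.8% of the tumor-side barcodes of Xevinapant 1 and 2 and 66.9 to 76.2% of those of the other samples. Its part in the share was not tested. Of cells within the Opalin and Top2a limits, members were 16.3%, 8.80% and 13.8% with vehicle and 18.0% and 9.77% with Xevinapant. The difference of 2.07 percentage points was not larger than the spread between samples (exact two-sided permutation test, p = 0.5, where 3 against 2 samples cannot go below p = 0.1). Without Xevinapant 1 and 2 it became -0.396, and with cells thinned to 5000 UMIs it was 1.49 (exact permutation p = 0.4). With each matrix as 1 mouse it was 1.70 (4 against 4, exact permutation p = 0.314, smallest possible 0.0286), and without the barcodes found in both pools 2.08. Host cells without C1q can be among the tumor-side barcodes. Among those with at least 3 UMIs of Olig1, Olig2 and Sox10 together, shares were 5.56%, 2.64% and 3.28% against 9.90% and 3.58%. That difference was 2.91 points (exact permutation p = 0.4).

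**Figure D3:**
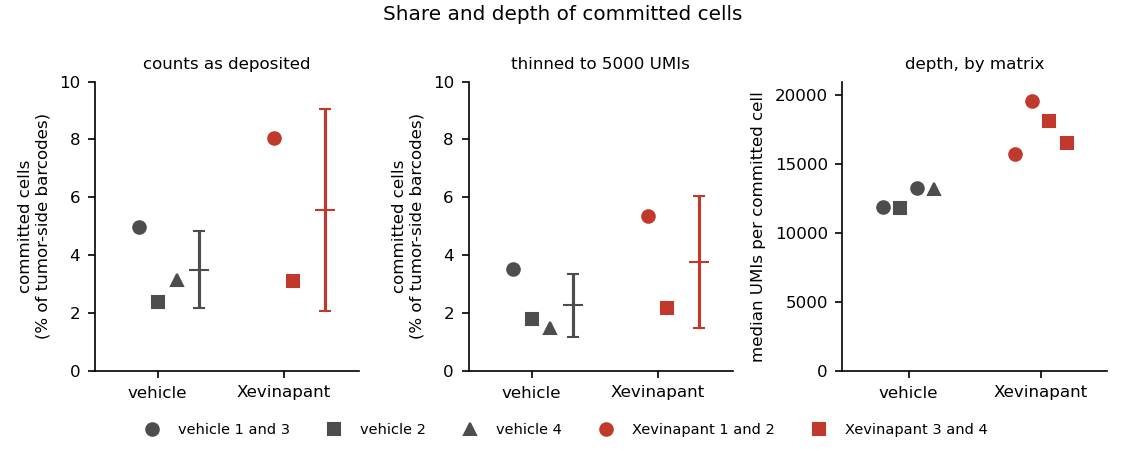
Share of committed cells among tumor-side barcodes per sample (left, counts as deposited; middle, all cells thinned to 5000 UMIs) and median UMIs per committed cell in each of the 8 matrices (right); bars give the mean and SD of the samples. Xevinapant 1 and 2 stands highest at 8.03%, the other 4 samples lie between 2.39% and 4.98%, and the members of the Xevinapant matrices are deeper than those of the vehicle matrices.

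Stage genes in members were compared at 5000 UMIs, as the share of members with a UMI. A Pdgfra UMI was found in 73.6%, 84.3% and 84.7% of vehicle members and in 63.6% and 67.3% of Xevinapant members. The groups did not overlap for Pdgfra, with a difference of -15.5 percentage points (exact permutation p = 0.2, adjusted p = 0.72 over 12 stage genes by Benjamini-Hochberg). Ptprz1 was also lower without overlap, with means of 98.7% and 94.9% (exact permutation p = 0.1, adjusted p = 0.72). C1q cells, which carried lineage RNA as given above, also had lower shares without overlap. These were 27.5%, 31.9% and 38.2% against 21.4% and 24.3% for Pdgfra, and 62.7%, 65.2% and 78.7% against 35.9% and 61.3% for Ptprz1. The part of this background in the difference between members was not tested. Myrf was found in 37.8%, 27.8% and 16.6% of vehicle members and in 50.5% and 35.3% of Xevinapant members, so its groups overlapped (difference 15.5 points, exact permutation p = 0.3). Mki67 had means of 22.7% and 15.3% (exact permutation p = 0.3), with vehicle 1 and 3 at 18.5% below Xevinapant 3 and 4 at 19.1%. In C1q cells Mki67 was found in 57.8%, 62.8% and 65.5% against 40.6% and 54.9%. Later genes differed by less, with Mbp at 5.52% and 7.12%, Enpp6 at 5.94% and 7.92%, and Bmp4 at 8.99% and 9.71%. None of the 12 genes passed, and the smallest adjusted p in any setting was 0.343.

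Gene levels were compared on counts summed over the members of each sample, with CPM scaled by TMM. No gene passed: edgeR's quasi-likelihood test with Benjamini-Hochberg adjustment called 0 of 11698 genes, that is 0%. At an unadjusted p under 0.05, 932 genes were higher with Xevinapant, or 7.97%, and 841 lower, or 7.19%. In 17.2% of all genes tested both Xevinapant samples lay above all 3 vehicle samples, and in 16.8% below, and each count of members of a list below is read against these shares. DESeq2, run as an alternative, called 151 genes, or 1.29%, among them the listed genes Slc2a1, Pfkfb3, Ndrg1, Vegfa, Junb, Nr4a1, Dusp1, Egr1 and Tnfaip3, all higher, and Hes5, Pdgfra, Ptprz1, Mag, Olig1 and Mbp, all lower. With each matrix as 1 mouse, edgeR called 617. Without the barcodes found in both pools it called 0 again. The differences below are values and not calls.

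The genes with the smallest p that were higher with Xevinapant were led by Slc2a1, the glucose transporter GLUT1. Slc2a1 stood at 160, 175 and 168 CPM in the vehicle samples and 468 and 378 CPM with Xevinapant, a log2 difference of 1.34 ± 0.14 (SE; edgeR, Benjamini-Hochberg adjusted p = 0.129). Its sign held in 16 of 16 alternatives, in 6 of which it passed, with adjusted p from 7.1e-14 to 0.765. The log2 difference of Slc2a1 ranged from 0.55, with the rule applied to cells thinned to 5000 UMIs, to 1.63 with all 4 markers required. Its counts were uneven within samples, since 5 cells held 17.3 to 46.8% of its UMIs. Bhlhe40, a transcription factor gene induced by stress and low oxygen, had 172, 174 and 130 against 451 and 348 CPM. Ccn1, a matrix-associated growth factor, had 75.0, 83.7 and 84.7 against 213 and 162 CPM, highest in the sample with the highest fibroblast sum, whose part in this value was not tested. Egr1, an immediate early gene, had 101, 68.6 and 85.1 against 184 and 210 CPM, and Rhbdf1 had 24.4, 32.0 and 24.1 against 64.0 and 55.6 CPM. In all 5 genes the groups did not overlap, but the last 4 shared an adjusted p of 0.169 by edgeR with Benjamini-Hochberg adjustment.

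The 5 genes of smallest p that were lower had the same adjusted p of 0.169 by edgeR with Benjamini-Hochberg adjustment. Ecrg4, which encodes a secreted growth-restraining peptide, had 61.4, 80.2 and 49.3 CPM with vehicle and 18.4 and 21.3 with Xevinapant. Slc6a11, the GABA transporter GAT3, had 89.7, 73.2 and 132 against 32.0 and 32.7 CPM. Stmn3, a microtubule regulator, had 93.0, 96.5 and 120 against 40.8 and 54.2 CPM, and Erh 87.1, 81.4 and 92.8 against 49.3 and 53.5 CPM. Mbp completed these with 48.2, 57.0 and 55.5 against 26.6 and 29.0 CPM (log2 difference -0.94 ± 0.14). Over 16 alternatives the Mbp difference ranged from -1.02 to -0.29, the latter with the rule applied to cells thinned to 5000 UMIs. The Mbp values rest on few cells, since 5 members held 62.8%, 90.8% and 93.2% of its UMIs in the vehicle samples and 33.6% and 71.9% with Xevinapant, and 1 member of vehicle 4 held 204 of its 251. The share of members with an Mbp UMI was not lower with Xevinapant, as given above.

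**Figure D4:**
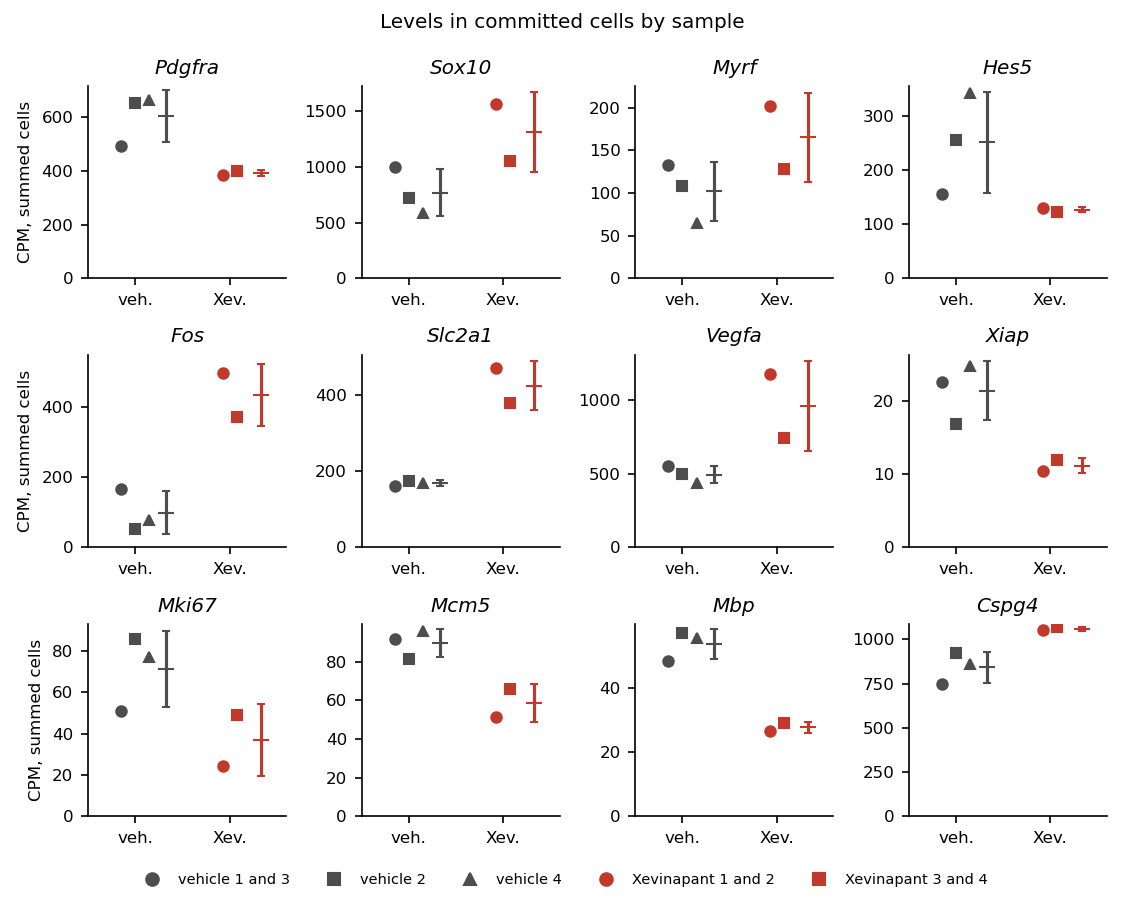
CPM of 12 genes in committed cells summed per sample (y axis, linear, from 0), with vehicle samples in grey, Xevinapant samples in red, and bars for the mean and SD of each group. The genes were picked from the lists for display, so how many of them are apart is not a result. The groups do not overlap for any of the genes shown but Myrf, and none of them passed edgeR's test across all genes. Of all genes tested, 17.2% were higher and 16.8% lower with Xevinapant without overlap.

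Precursor genes split in their direction. Pdgfra had 491, 652 and 663 CPM with vehicle and 383 and 400 with Xevinapant (log2 difference -0.62 ± 0.17 SE), and Hes5 had 156, 256 and 342 against 131 and 124 CPM (-0.98 ± 0.29). Ptprz1 (-0.67), Olig1 (-0.55) and Olig2 (-0.37) were lower without overlap as well. Sox10 went the other way, with 997, 720 and 584 CPM with vehicle and 1565 and 1056 CPM with Xevinapant (0.77 ± 0.26), as did Cspg4 with 750, 922 and 860 against 1051 and 1068 CPM. Over the OPC list the median log2 difference was -0.14. It ran from -0.23, with all 4 markers required, to -0.03, without barcodes above 3 times the median UMI count. Of its 14 genes, 2 were higher and 5 lower without overlap. That is more on the lower side than the 16.8% of all genes, and the 2 genes higher without overlap were Sox10 and Cspg4.

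Commitment genes had a median near that of all genes. The median over 15 committed and newly formed oligodendrocyte genes was 0.04, with 1 gene higher and 1 lower without overlap, under the background shares. Without Xevinapant 1 and 2 that median was -0.07, and without Xevinapant 3 and 4 it was 0.33. Bcas1 (log2 difference 0.34 ± 0.26), Itpr2 (0.60 ± 0.32), Enpp6 (-0.14 ± 0.30) and Fyn (0.04 ± 0.21) all had overlapping groups. Among 21 regulators of the lineage the median was 0.03, with 3 higher and 5 lower without overlap. This median also changed sign, from -0.10 without Xevinapant 1 and 2 to 0.13 without Xevinapant 3 and 4. Myrf had 133, 108 and 64.8 against 202 and 129 CPM (0.71 ± 0.30), and Nkx2-2 had 301, 191 and 188 against 387 and 274 CPM (0.54 ± 0.24), both with overlap.

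Myelin genes had a median of -0.44 over 8 genes, with 2 higher and 3 lower without overlap. Mbp and Mag (3.03, 6.39 and 5.53 against 1.02 and 0.339 CPM) were among those lower, and Cldn11 and Apod higher. The Mag values rest on 4, 1 and 2 members of the vehicle samples, with 24 of 25 UMIs of vehicle 4 in 1 cell, and on 4 and 1 members with Xevinapant. With the rule applied to cells thinned to 5000 UMIs, the myelin median was 0.28. That setting changed depth and membership together, as it left 891 members, 581 of them in common. Cholesterol synthesis genes, which supply myelin lipid, had a median of -0.18 with 8 of 18 lower without overlap, among them Hmgcs1, the first committed enzyme of the pathway (206, 158 and 189 against 138 and 121 CPM), and Cyp51. With the thinned rule that median turned positive, at 0.19, so no direction is given for either list.

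Cell cycle genes were lower in the treated members. All 14 S phase and mitosis genes tested had a negative log2 difference, 10 of them without overlap against 16.8% of all genes, and the median was -0.61. Mcm5, a subunit of the replication helicase, had 91.7, 81.4 and 95.7 CPM with vehicle and 51.6 and 65.6 CPM with Xevinapant (-0.62 ± 0.15). Mki67 had 50.8, 86.0 and 76.9 against 24.6 and 49.1 CPM (-0.95 ± 0.32), and Rrm2, a ribonucleotide reductase subunit, 57.5, 44.8 and 63.9 against 19.0 and 35.2 CPM. The Top2a limit of the rule is stricter in deeper cells, and Top2a itself was at 25.2, 31.9 and 31.6 CPM in vehicle members and 18.2 and 23.5 CPM in Xevinapant members. With the rule applied at 5000 UMIs the median of the list was -0.24. Among genes of cell cycle exit, Cdkn1a (p21) had 105, 68.6 and 50.4 against 168 and 122 CPM (0.95 ± 0.28), while the list as a whole had a median of 0.17. That median was -0.07 with the rule applied to thinned cells, so no direction is given for the list.

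Of the 14 lists, immediate early and heat shock genes had the median farthest from 0. All 12 were higher without overlap, against 17.2% of all genes, with a median of 1.15. Fos, the AP-1 subunit, had 168, 52.9 and 77.2 CPM with vehicle and 497 and 372 CPM with Xevinapant (2.10 ± 0.39), although 5 cells held 34.7 to 69.2% of its UMIs in each sample. Junb (1.37 ± 0.24), Dusp1 (1.11 ± 0.18) and Jun (0.63 ± 0.21) followed. Hspa1b, an inducible HSP70 gene, had 27.2, 26.7 and 22.5 against 84.4 and 33.5 CPM (1.23 ± 0.35), so Xevinapant 1 and 2 stood well above the other 4 samples. Over 16 alternatives the median ranged from 0.68, with the rule applied at 5000 UMIs, to 1.33. The groups carry different batch dates, so handling and treatment cannot be told apart in this difference.

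Hypoxia genes were higher in part. Of 17 tested, 7 were higher without overlap and 1 lower, with a median of 0.43. Besides Slc2a1, Vegfa, the vascular growth factor, had 551, 499 and 434 CPM with vehicle and 1174 and 741 CPM with Xevinapant (0.95 ± 0.21), Ndrg1 11.9, 20.3 and 12.4 against 53.9 and 29.6 CPM, and Car9, a carbonic anhydrase, 19.5, 18.6 and 5.97 against 78.2 and 26.6 CPM. The glycolytic gene Pgk1, also a target of hypoxia-inducible factor, was lower without overlap, with 249, 267 and 320 against 242 and 205 CPM. Xevinapant 1 and 2 carried much of this pattern: without it the median of the list was 0.06.

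**Figure D5:**
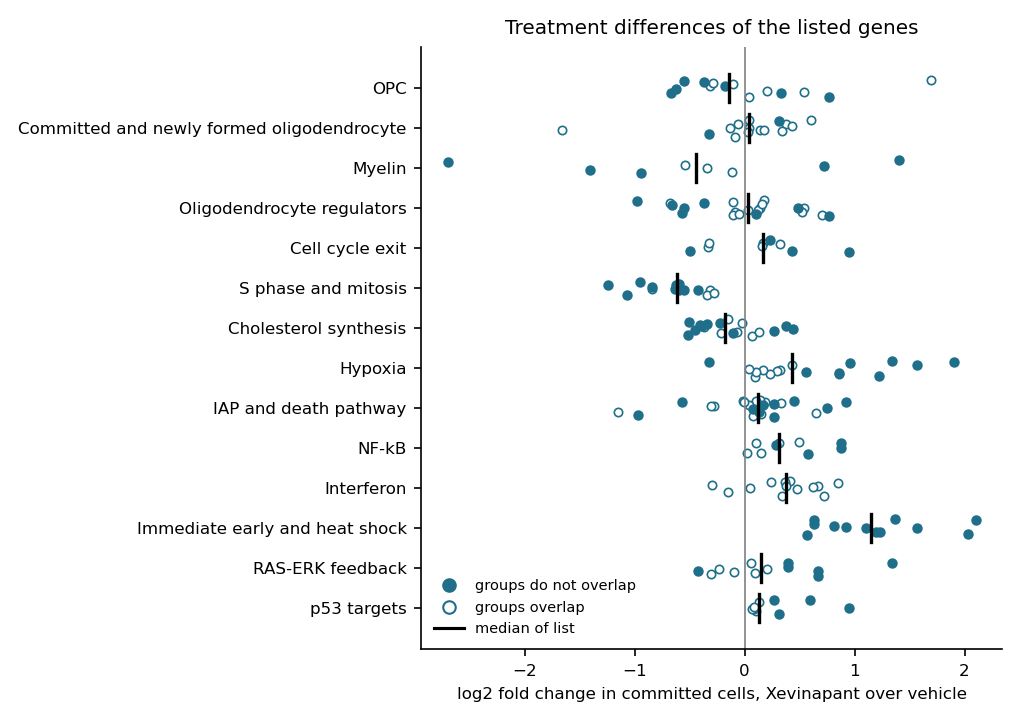
Log2 fold change of Xevinapant over vehicle in committed cells (x axis, edgeR estimates) for every tested gene of the 14 lists; filled points are genes whose groups do not overlap and black bars are list medians. The immediate early and heat shock list lies to the right (median 1.15) and the S phase and mitosis list to the left (median -0.61), and no single gene passed the adjusted threshold.

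The targets of the drug and the pathways below them gave a median near 0 at the RNA level, with larger values for a few genes. Birc2, which encodes cIAP1, had 33.7, 33.1 and 37.6 CPM with vehicle and 39.5 and 35.4 CPM with Xevinapant (0.10 ± 0.15), with overlap. Birc3, which encodes cIAP2 and is itself an NF-kB target, had 8.86, 3.49 and 6.19 against 11.7 and 10.2 CPM (0.75 ± 0.38). Xiap, the direct caspase inhibitor, had 22.5, 16.9 and 24.8 against 10.4 and 11.9 CPM (-0.97 ± 0.24; edgeR with Benjamini-Hochberg, adjusted p = 0.22). Bcl2l11, which encodes the death activator BIM, was higher with 17.1, 16.9 and 9.73 against 29.9 and 24.1 CPM. Over 24 IAP and death pathway genes the median was 0.12, with 8 higher and 2 lower without overlap. Casp8 was at 1.33 to 4.19 CPM in every sample, a level at which little can be read.

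The signalling lists gave small medians with a few larger genes. In the NF-kB list all 9 genes had a positive difference, with a median of 0.31 and 4 without overlap: Tnfaip3, which encodes the feedback inhibitor A20 (25.7, 24.4 and 22.3 against 50.5 and 37.9 CPM), Map3k14, the kinase NIK that cIAP1 degrades (12.8, 9.88 and 10.8 against 17.7 and 24.1 CPM), Nfkb2 and Rela. Without Xevinapant 1 and 2 the NF-kB median was 0.15, and it was 0.49 with no filter on low counts. The p53 target list had a median of 0.13, or 0.28 without vehicle 1 and 3, with 4 of 9 higher without overlap, and the RAS-ERK feedback list 0.15, with 5 of 12 higher without overlap, among them Spred3 (0.67 ± 0.16) and Dusp5 (1.34 ± 0.35), and 1 lower, Etv1 (-0.43 ± 0.15). Without barcodes above 3 times the median UMI count the RAS-ERK median was 0.01. No interferon gene of 13 was apart between the groups. Vehicle 2 was low in them, with Isg15 at 110, 4.65 and 65.4 CPM in the vehicle samples against 95.7 and 116 CPM, and Irf7 at 332, 43.6 and 163 against 322 and 339 CPM.

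Did committed cells respond differently from Pdgfra OPC-like cells of the same tumors? The treatment difference was compared with that of 794 such cells, in 1 model with the sample as a block. They were chosen by UMIs of Pdgfra, Olig1, Olig2 and Sox10 without the markers, and were not shown to be precursors. They also carried the astrocyte genes Slc6a11 (185 to 504 CPM) and Hepacam (72.6 to 214 CPM). The fibroblast gene Col1a1 was at 15.9 to 4377 CPM in them, and its source was not tested. edgeR's quasi-likelihood test with Benjamini-Hochberg adjustment called 0 of 12053 genes, or 0%, with 671 at an unadjusted p under 0.05, or 5.57%, and DESeq2 called 14, or 0.116%. List medians of the treatment difference were set side by side as log2 ratios of group mean CPM, not as edgeR estimates. For immediate early and heat shock genes they were close, at 1.15 in members and 1.02 in Pdgfra OPC-like cells. So they were for S phase and mitosis genes (-0.59 and -0.62) and hypoxia genes (0.42 and 0.45). The medians lay further apart for the interferon list (0.44 and 0.11) and the OPC list (-0.14 and -0.39). The comparison cells were chosen on Pdgfra, Olig1, Olig2 and Sox10, which are in the OPC list. Signs were opposite for the myelin (-0.39 and 0.13), cell cycle exit (0.20 and -0.16) and cholesterol synthesis lists (-0.18 and 0.05). The edgeR medians of these last lists in members changed sign with the rule applied to thinned cells, as given above, so no contrast is read from them. In edgeR estimates the interferon median in members was 0.38. It turned to -0.11 without barcodes above 3 times the median UMI count and to -0.02 without vehicle 2. Without vehicle 1 and 3 it was 0.81, so no contrast is read from the interferon list. Both sets of medians come from the same samples, but depth was not matched. The median UMI count of a Pdgfra OPC-like cell was 11997, 10981 and 11604 in the vehicle samples. It was 10731 in Xevinapant 1 and 2, which gave 94 such cells, and 20227 in Xevinapant 3 and 4. Members of these Xevinapant samples had medians of 17780 and 16861.

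Among single genes, Cldn11, the tight junction protein of myelin, had the smallest p among genes with a positive interaction. Its log2 ratio of members to Pdgfra OPC-like cells was 2.21, 1.82 and 1.37 in the vehicle samples and 4.08 and 4.32 with Xevinapant, an interaction of 2.64 ± 0.32 (edgeR with Benjamini-Hochberg, adjusted p = 0.0666), and it passed in 10 of 15 alternatives. In members Cldn11 had 117, 22.1 and 94.0 against 144 and 124 CPM, so vehicle 2 was low. In Pdgfra OPC-like cells Cldn11 had 24.5, 5.54 and 35.7 against 7.53 and 5.27 CPM, so the low values of that denominator with Xevinapant entered the interaction as well. Moxd1 (1.06), Igtp (1.71), Nxph1 (1.13) and Pxylp1 (0.90) followed with the same sign. On the other side stood Lcn2 and Col1a1 (-3.10), with the same adjusted p of 0.0666 by edgeR with Benjamini-Hochberg. Lcn2, an acute phase gene, did not pass the filter on low counts in members and entered this test through the Pdgfra OPC-like cells in which it was high, so no fold is read from it. It was at 0.511, 0.693 and 1.29 CPM in the Pdgfra OPC-like cells of the vehicle samples and 271 and 174 CPM in those of the Xevinapant samples. Col1a1, a fibroblast gene, was at 62.8, 15.9 and 99.99 CPM in the Pdgfra OPC-like cells of the vehicle samples and 4377 and 1124 CPM in those of the Xevinapant samples. In members Col1a1 had 143, 29.6 and 75.4 against 824 and 153 CPM, and its interaction ranged from -4.64, with all 4 markers required, to -0.087, with comparison cells taken without a Pdgfra condition. Pdpn (-1.14), Slc6a11 (-2.21) and Hepacam (-1.44), genes of astrocytes, completed the list, and none passed. With the same change of comparison cells, the interaction of Cldn11 was 1.47.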

How the data were processed

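Fixed single cells of mouse tumors were profiled with a 10x Genomics kit. The deposited files hold raw UMI counts of 19059 genes per barcode, which the authors made with Cell Ranger (7.1.0 in the file headers, 3.0 in the labels) against mm10 and then read into Seurat 4.0. The labels name filters and removal of doublets, but 54574 of the 56943 deposited barcodes pass those quality filters, so the deposited counts precede them, and doublets were left in here. Total depth was 1163463035 UMIs. Levels of different genes are not compared, as the kit counts gene probes that differ in yield.

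Barcodes with under 200 genes, over 10% UMIs of mitochondrial genes or a ratio of log10 gene number to log10 UMI number under 0.8 were left out. Marker genes and lists were chosen with earlier results of these data known. Named genes were the listed genes, the 5 of smallest p each way for each test, and the 15 highest and 10 lowest of the profile. Members' counts were summed per sample and tested with edgeR 4.0.16 (TMM, filterByExpr, quasi-likelihood, Benjamini-Hochberg at 0.05; limma 3.58.1, R 4.3.3), leaving out the 9 rule genes. Some genes that entered the tests and list counts are not reported here by name. CPM values in the comparison of treatment are scaled by TMM, and those of marker lists are not. Shares of joined samples are means of their matrices and were compared by exact two-sided permutation. Thinning drew UMIs without replacement, leaving out shallower cells. Alternatives used DESeq2 1.42.0, other filters, other members and left-out samples. The code for the gene tests was tested on simulated data. Python 3.11.15, numpy 2.4.6, scipy 1.17.1, pandas 2.3.3, scanpy 1.11.5 and matplotlib 3.10.9 were used. Nothing in the labels says that the joined samples are separate animals, so p-values measure the spread between these samples, which may be technical.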

Additional observations from a re-analysis of the deposited data

How the results depend on the processing

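Leaving out each sample in turn moved the difference in the share of committed cells between -0.396 and 4.53 percentage points, with the negative value without Xevinapant 1 and 2. Genes called by treatment, 0 in the reported test, numbered 151 with DESeq2, 407 with no filter on low counts, 617 with each matrix as 1 mouse, 667 with the matrix number added as a replicate block, 14 with the rule applied to cells thinned to 5000 UMIs, and 0 to 20 without each sample in turn (20 without vehicle 1 and 3, 10 without Xevinapant 3 and 4). Genes called for the difference between cell classes, 0 in the reported test, numbered 3 without TMM, 14 with DESeq2, 59 with no filter, 3 with all 4 markers required, 2 without barcodes above 3 times the median UMI count, 2 without the highest Scrublet scores, 8 with thinned members, 1 with each matrix as 1 mouse, 6 without barcodes shared by the pools, and 1 to 12 without each sample in turn. The cause of these changes was not tested, except that counting each matrix separately adds samples. Among stage genes, none of which passed, the difference changed sign for Cspg4 (-0.143 points without thinning; -0.428 to 2.01 without each sample), Bmp4 (-0.419 with each matrix as 1 mouse; -1.85 to 3.01), Tcf7l2 (-0.428 to 7.09), Mbp (-0.308 at 3000 UMIs) and Mog (-0.701 to 1.47). Shared barcodes, the rule on thinned cells, the replicate block and the denominator within the Opalin and Top2a limits were chosen after seeing the data. The matrices of both pools are numbered 1 to 4, so the replicate block could be fitted over matrices but not over the joined samples, which span several numbers. Deviations of same-numbered matrices from their group means correlated at 0.136, -0.063, 0.00705 and 0.106 over 11097 genes, and not every matrix correlated best with its own number, so the numbers were not taken as pairs. The share difference over the 4 pairs was 1.70 points (exact sign-flip permutation, p = 0.375, smallest possible 0.125). Depth limits genes such as Mag, Mog and Casp8, at a few CPM.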

Other observations

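Other members of the listed pathways had values not given above. Prom1, a stem cell surface gene, stood at 8.65, 17.4 and 41.6 CPM in committed cells of the vehicle samples and 4.75 and 9.99 CPM with Xevinapant, with overlap. Matn4, a matrix gene of precursors, stood at 3.46, 4.65 and 15.9 against 45.6 and 8.30 CPM. Sox9 was highest in vehicle 4, with 181, 282 and 660 against 221 and 250 CPM, and vehicle 4 also had the lowest Myrf (64.8 CPM), Sirt2 (295 CPM) and Cnp (220 CPM) of the 5 samples. The committed cells of vehicle 4 thus combined the highest Sox9 with the lowest level of these 3 lineage genes, a description of 1 sample with no test. Ifitm3 followed the other interferon genes, with 423, 53.5 and 460 against 275 and 543 CPM, lowest in vehicle 2.

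Expressed as a share of the cells within the Opalin and Top2a limits, members made up 16.3%, 8.80% and 13.8% in the vehicle samples and 18.0% and 9.77% with Xevinapant, a difference of 0.886 percentage points (exact permutation test, p = 0.8, a denominator chosen after seeing the data). With all 4 markers required, the shares of tumor-side barcodes were 1.73%, 0.912% and 0.731% against 3.39% and 1.16% (exact permutation test, p = 0.3).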
